A study of Rattus norvegicus with 5 samples.

Results

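Bone morphogenetic proteins (BMPs) and transforming growth factors beta (TGF-beta) are secreted signals of one protein superfamily. The genes described here are 10 of that superfamily and its receptors: the ligands Bmp2, Bmp3, Bmp4, Bmp6, Bmp7, Tgfb1, Tgfb2 and Tgfb3, and the receptors Bmpr1a and Bmpr2. They were chosen by name. All probe sets whose single gene symbol in the platform annotation equals one of these names were taken, which gave 13 of the 8799 probe sets on the array. These 13 stand for 9 of the 4736 genes named there, 4 of them with 2 probe sets and 5 with 1, and no probe set carried the single symbol Bmpr2. Transcript levels were measured in total RNA of rat hippocampus labelled P5, on 5 single-colour arrays. A pair of arrays held RNA of rats of the control diet group, a pair held RNA of fetal alcohol exposed rats, and 1 held RNA of the isocaloric diet group. An isocaloric diet usually serves to match calorie intake. The labels do not say whether these rats or their mothers were fed the diets. The labels give no strain, no alcohol dose or time, and leave unsaid if each array had its own animal or a pool, so the p-values measure only the spread between these samples, which may be technical.

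Ligands of this superfamily bind as dimers to complexes of type I and type II receptor kinases, which phosphorylate Smad proteins. BMP receptors such as BMPR1A act through Smad1, Smad5 and Smad9, and TGF-beta and activin receptors through Smad2 and Smad3. Smad4 joins both branches, and the complexes enter the nucleus and switch genes such as those of the Id family on or off. In the forebrain, BMPs are made by the dorsal midline, from which the choroid plexus forms next to the hippocampus. Meningeal cells are a further source of secreted factors of this superfamily.

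Most of these transcripts gave little signal. The values are intensities on a linear scale, and 9 of the 13 probe sets lay under the filter on dim probe sets, the 40th percentile of the mean log2 value, which corresponds to an intensity of 33.4. They were not tested. The 4 that were tested belong to Bmp6, Bmp7, Tgfb2 and Tgfb3. On at least 1 array, 5 of the 13 read below 10.605, the offset added before taking log2, so a log2 difference of a dim probe set understates its change. Levels are compared between arrays for 1 probe set at a time, never between probe sets.

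Marker genes of cell types were summed on each array. The lists hold general markers, so they cannot tell the hippocampus from another brain region. Markers of neurons, 13 of 16 with a probe set, summed to intensities from 5301 to 6640 over the 5 arrays, and those of astrocytes, 9 of 10, from 5140 to 5664. Sums of microglia and macrophage markers, 7 of 10, ran from 346 to 574, and those of red blood cells, 3 of 6, from 5504 to 8077. Markers of tissues that border the hippocampus differed more between the arrays than those of neurons and astrocytes. Choroid plexus markers, 9 of 15 with a probe set, summed to 7033 and 7192 under control diet, 2671 and 1234 after fetal alcohol and 7796 under isocaloric diet. Most of this gap was Ttr, transthyretin, the chief secreted protein of that epithelium. Without Ttr the sums were 1736 and 2307, then 1668 and 1165, then 2405. Markers of meninges and connective tissue, 15 of 18, summed to 10015 and 11856, to 9681 and 6127, and to 8017 on the same arrays. In none of these lists was a marker at 0. In such bulk RNA, fewer cells of a type and less RNA per cell cannot be told apart.

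Promoter sequences from RefSeq (build GRCr8) were found for 7 of the 9 genes, all but Bmp2 and Bmp7. The 250 bases upstream of the gene start, 5′ to 3′ on the gene's strand, are shown for Bmp6 and Tgfb1, which at probe sets X58830_at and X52498cds_at read lower on the fetal alcohol arrays and the isocaloric array than on either control diet array, and for Bmp4, the only one of the 7 with a short Smad motif. Capitals mark matches to CAGAC, the core of Smad3 and Smad4 elements, and to GGGCGG, the GC box, each on either strand.
Bmp6, chr17:26675262-26675511, minus strand: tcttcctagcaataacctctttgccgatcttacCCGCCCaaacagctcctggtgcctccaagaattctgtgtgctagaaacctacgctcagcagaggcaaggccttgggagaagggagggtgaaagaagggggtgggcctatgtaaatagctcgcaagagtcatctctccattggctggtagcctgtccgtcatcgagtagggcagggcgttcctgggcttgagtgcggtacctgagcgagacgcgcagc
Tgfb1, chr1:90324062-90324311, plus strand: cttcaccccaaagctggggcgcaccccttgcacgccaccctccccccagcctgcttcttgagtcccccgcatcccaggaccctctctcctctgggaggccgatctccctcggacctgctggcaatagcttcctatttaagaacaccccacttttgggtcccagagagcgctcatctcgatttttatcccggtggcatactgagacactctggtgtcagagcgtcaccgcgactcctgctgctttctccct
Bmp4, chr15:22101934-22102183, minus strand: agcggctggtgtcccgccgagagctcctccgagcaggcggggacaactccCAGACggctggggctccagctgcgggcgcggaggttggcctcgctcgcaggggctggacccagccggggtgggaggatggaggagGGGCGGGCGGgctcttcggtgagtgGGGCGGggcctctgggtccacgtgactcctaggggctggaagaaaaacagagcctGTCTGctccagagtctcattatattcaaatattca

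Bmp4 held CAGAC at 200 bases upstream and its reverse complement at 35 bases, and 3 GC boxes, of which a pair overlaps. Bmp6 held 1 GC box, on the opposite strand, at 217 bases upstream. Of 33469 RefSeq promoters of this length, 42.9% held CAGAC and 30.5% GGGCGG. A search for GGCGCC, a GC-rich motif bound by Smad1 and Smad5 (8.69% of promoters), and for GTCTAGAC, the palindromic Smad element (0.173%), found none in the 7. TATAAA (12.9%) was found in 1, that of Bmpr1a. A match is a description of letters and not evidence of binding.

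Fetal alcohol arrays were first set against control diet arrays, to ask whether transcripts of these signals differ in the hippocampus after alcohol exposure before birth. Bmp6, Bmp7 and Tgfb1 read lower on both fetal alcohol arrays than on both control diet arrays, while Bmp2, Bmp3, Tgfb2 and Tgfb3 had small positive differences at their brightest probe sets, Bmp2 alone without overlap. No member passed the threshold in limma, an adjusted p of 0.05, in a table in which 0 of 5244 probe sets passed (0% called, 5.61% at an unadjusted p under 0.05). Of the 4 tested probe sets, 2 had negative and 2 positive differences, and of all 5244, 49.5% and 50.5%. The median over all 5244 was 0.0049 on the log2 scale.

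**Figure D1:**
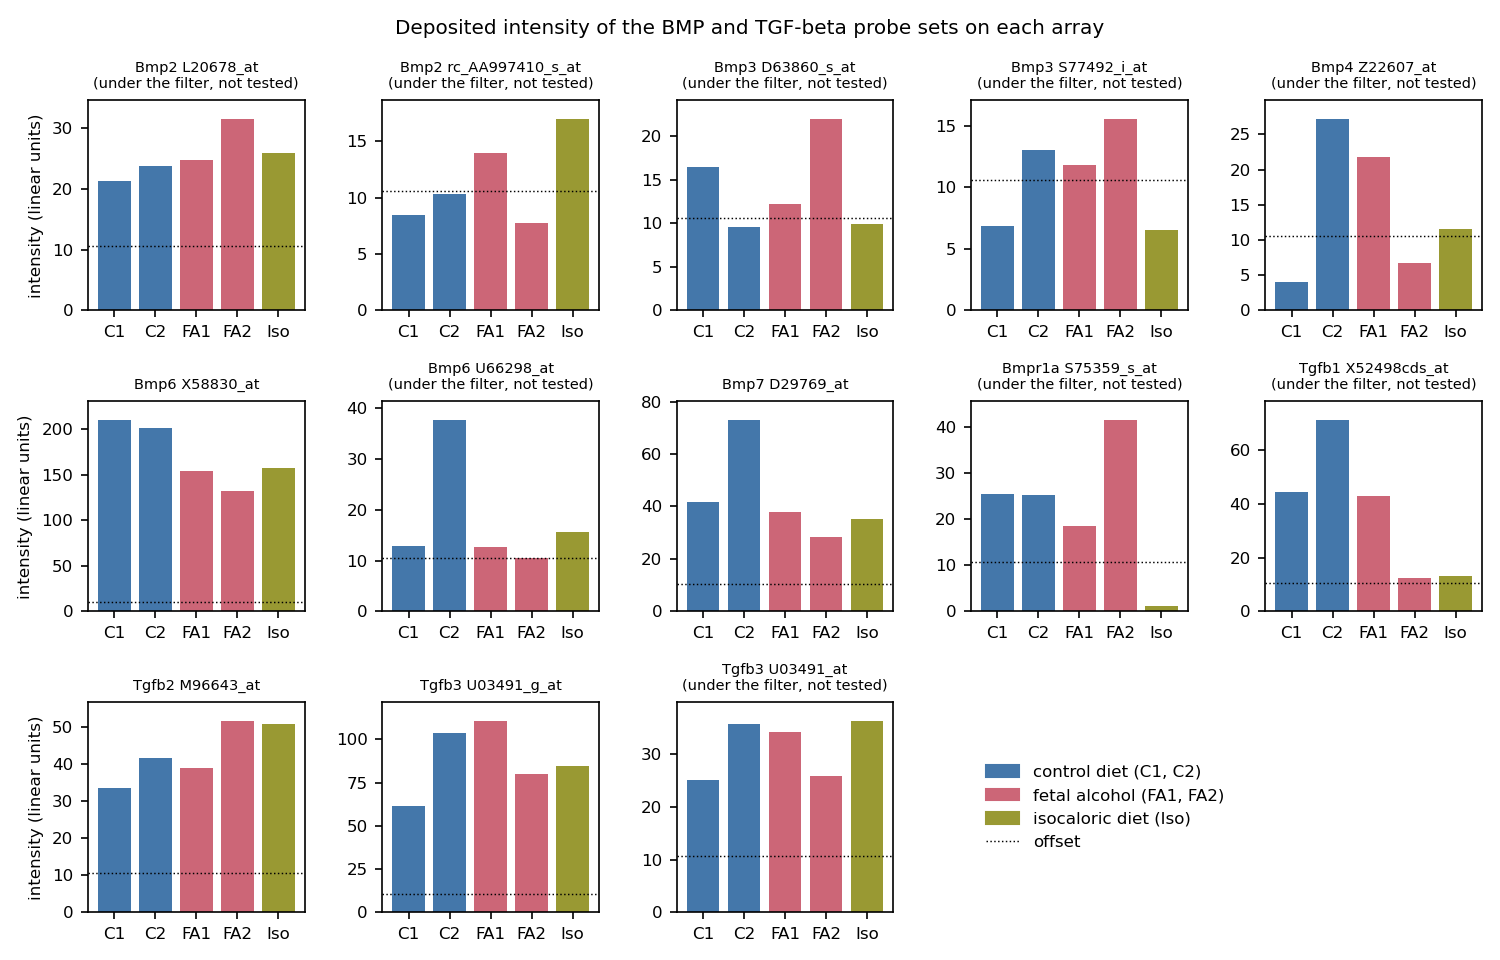
Bars give the deposited intensity (linear units, axis from 0, a scale of its own in each panel) of the 13 probe sets on the control diet arrays (C1, C2), the fetal alcohol arrays (FA1, FA2) and the isocaloric array (Iso); the dotted line is the offset of 10.605. Bmp6 at probe set X58830_at shows 2 close control diet bars above the other 3, and Bmpr1a shows a nearly empty isocaloric bar.

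Bmp6, a ligand also known for its part in iron balance, passed the filter at 1 of its 2 probe sets. At probe set X58830_at it measured 209.7 and 201 under control diet and 154 and 133 after fetal alcohol. The arrays of a group lay close together and the groups did not overlap. The fetal alcohol mean was 69.7% of the control diet mean. The log2 difference was -0.49 ± 0.23 (SE, n = 2 and 2), with a 95% interval from -1.02 to 0.03 and a limma adjusted p of 0.909. In the limma fit without the filter the interval ran from -0.98 to -0.0083, with an adjusted p of 0.893. Leaving out any 1 array gave between -0.59 and -0.39. The second Bmp6 probe set, U66298_at, was dim. It measured 12.8 and 37.6 under control diet and 12.8 and 10.6 after fetal alcohol. Control diet array 1 and fetal alcohol array 1 read the same to 3 digits. The log2 difference of -0.59 was -0.07 without control diet array 2 and -1.12 without control diet array 1.

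Bmp7, a ligand that takes part in kidney and eye development and in the growth of dendrites, measured 41.9 and 72.8 under control diet and 37.9 and 28.5 after fetal alcohol. The groups did not overlap, but the control diet arrays lay farther from each other than control diet array 1 from the fetal alcohol arrays. The log2 difference was -0.60 ± 0.29, with a 95% interval from -1.28 to 0.07 and a limma adjusted p of 0.911. Without control diet array 2 it was -0.27, and without control diet array 1 it was -0.94.

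The remaining BMP ligands stayed under the filter. Bmp2, a ligand best known for bone formation, measured 21.3 and 23.8 under control diet and 24.7 and 31.4 after fetal alcohol at its brighter probe set, L20678_at. The fetal alcohol arrays were the higher pair, with a log2 difference of 0.22. The other Bmp2 probe set had 0.09, with 3 of 5 arrays below the offset. Bmp3, which counteracts other BMPs in bone, had 0.22 and 0.25 at its probe sets, with intensities between 6.57 and 21.9 and overlapping groups. Bmp4, a ligand of dorsal patterning, measured 4.08 and 27.1 under control diet and 21.8 and 6.76 after fetal alcohol. Its groups overlapped completely and the difference was 0.01, which turned to -0.67 without control diet array 1 and to 0.69 without control diet array 2.

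Tgfb1, the isoform best known for restraining inflammation and inducing matrix genes, was also under the filter on average. It measured 44.4 and 70.9 under control diet and 43.0 and 12.2 after fetal alcohol. Fetal alcohol array 1 read almost the same as control diet array 1, and array 2 read near the offset. The log2 difference was -0.94. It was -0.32 without fetal alcohol array 2 and -1.55 without fetal alcohol array 1. A limma fit without the filter gave it an SE of 0.46, a 95% interval from -2.08 to 0.21 and an adjusted p of 0.909.

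Tgfb2, an isoform of developing neurons and radial glia, measured 33.7 and 41.8 under control diet and 39.1 and 51.6 after fetal alcohol. The groups overlapped, with a log2 difference of 0.21 ± 0.25, a 95% interval from -0.37 to 0.78 and a limma adjusted p of 0.965. Without fetal alcohol array 2 the difference was 0.04. Tgfb3, an isoform needed for palate fusion, measured 61.6 and 104 under control diet and 110 and 80.0 after fetal alcohol at U03491_g_at. These also overlapped, with a log2 difference of 0.21 ± 0.29, a 95% interval from -0.46 to 0.87 and a limma adjusted p of 0.976. It was -0.12 without control diet array 1 and -0.0019 without fetal alcohol array 1. The dimmer Tgfb3 probe set, U03491_at, had -0.01.

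Bmpr1a, a type I receptor of BMP2 and BMP4, measured 25.5 and 25.1 under control diet and 18.5 and 41.4 after fetal alcohol. The control diet arrays agreed closely, and the fetal alcohol arrays lay on either side of them, so the difference of 0.11 had no direction common to both. It was -0.30 without fetal alcohol array 2 and 0.53 without array 1.

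By a rule of size, no overlap between the groups and at least a 1.5-fold difference on the log2 scale with the offset, 3 of the 13 probe sets were lower after fetal alcohol (Bmp7, Tgfb1 and the dim Bmp6 probe set) and 0 higher. Over all 8740 probe sets that are not array controls, 3.62% were lower by this rule and 2.06% higher. The count of lower members was 0 without fetal alcohol array 2, 1 without control diet array 2 and 4 without control diet array 1. Under quantile normalization or scaling to equal medians 0 of the 13 were lower by this rule. Without the demand on size, 4 of the 13 lay below (16.5% of all 8740) and 1 above (18.1%).

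Isocaloric diet was next set against control diet, 1 array against 2, which bears on diet without alcohol. This comparison shares the control diet arrays with the comparison above. The isocaloric array also read lower for Bmp6 at X58830_at, Bmp7 and Tgfb1, and it had the lowest Bmpr1a value. None of the 4 tested members passed in limma, as 0% of 5244 did (6.81% at an unadjusted p under 0.05). The lone array was assumed to vary like the others.

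Bmp6 measured 158 on the isocaloric array at X58830_at, below both control diet arrays and just above both fetal alcohol arrays. The log2 difference from control diet was -0.36 ± 0.28, with a 95% interval from -0.999 to 0.28 and a limma adjusted p of 0.862. Bmp7 measured 35.2, between the fetal alcohol arrays, with a log2 difference from control diet of -0.53 ± 0.36 (limma adjusted p = 0.853). Tgfb1 measured 13, as low as fetal alcohol array 2, a log2 difference from control diet of -1.51. In the limma fit without the filter this had a 95% interval from -2.91 to -0.11 and an adjusted p of 0.732.

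Bmpr1a measured 1.16 on the isocaloric array, under the offset, where every other array read between 18.5 and 41.4. The log2 difference from control diet was -1.61, and the fit without the filter gave it a 95% interval from -2.56 to -0.66 and a limma adjusted p of 0.664. Its size depends on the offset, from -2.34 with the offset at the 10th percentile of all values to -0.76 at the 40th. Tgfb2 measured 50.8, above both control diet arrays and within the range of the fetal alcohol arrays (log2 difference 0.35 ± 0.31, limma adjusted p = 0.89). Tgfb3 measured 84.6 at U03491_g_at, between the control diet arrays (0.07 ± 0.36, limma adjusted p = 0.982). Bmp2 measured 25.9 and 17.0 at its probe sets, Bmp3 9.87 and 6.57, Bmp4 11.6 and the dim Bmp6 probe set 15.7, which lies between the control diet arrays. By the rule of size 2 of the 13 were lower on the isocaloric array, Bmpr1a and Tgfb1 (7.52% of all 8740 probe sets), and 0 higher (4.18%). Without control diet array 1 it was 5 lower. Without the demand on size 5 lay below both control diet arrays (38.1%) and 4 above (35%).

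Fetal alcohol arrays were last set against the isocaloric array; this comparison shares arrays with both others. Differences were small for the tested members: -0.14 ± 0.28 for Bmp6, -0.07 ± 0.36 for Bmp7, -0.14 ± 0.31 for Tgfb2 and 0.14 ± 0.36 for Tgfb3 on the log2 scale, each with a limma adjusted p of 0.998 (0% of 5244 called, 4.21% at an unadjusted p under 0.05). The 95% intervals ran from -0.78 to 0.51 for Bmp6 and from -0.90 to 0.75 for Bmp7, so 2 arrays against 1 left a wide range of differences possible. By the rule of size 1 of the 13 was higher after fetal alcohol, Bmpr1a with 1.73, or 0.84 with the offset at the 40th percentile and 2.46 at the 10th (5.14% of all 8740 probe sets), and 0 lower (3.87%). It was 3 higher without fetal alcohol array 1 and 2 without fetal alcohol array 2. Without the demand on size 3 lay above the isocaloric array (35.9%) and 4 below (26.5%).

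**Figure D2:**
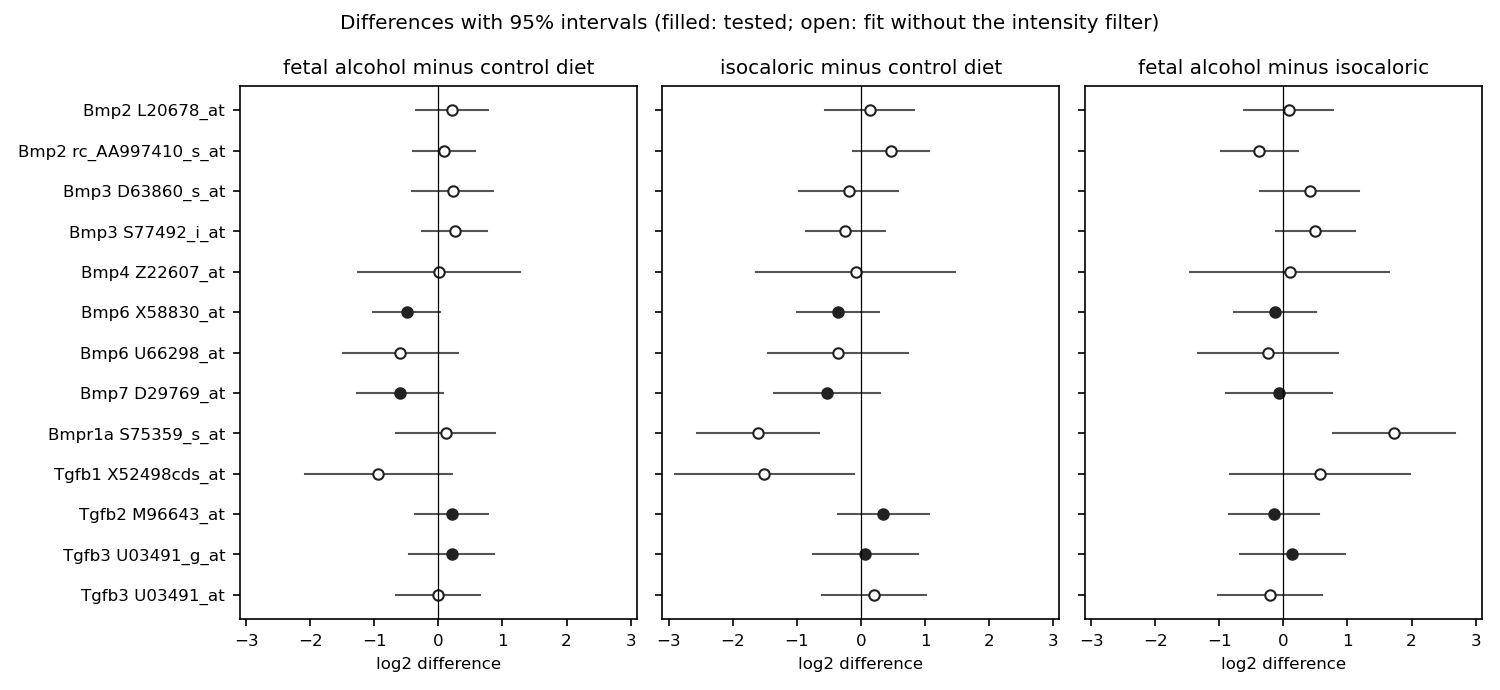
Points give the log2 difference of each probe set in the 3 comparisons and lines its 95% interval; filled points were tested in limma after the intensity filter and open points come from the fit without it. For fetal alcohol minus control diet every interval drawn includes 0, with the filled Bmp6 point at -0.49 and the Bmp7 point at -0.60; for isocaloric minus control diet the open Bmpr1a (-1.61) and Tgfb1 (-1.51) intervals lie below 0 without passing adjustment.

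The levels of Bmp6, Bmp7 and Tgfb1 were set beside the markers of choroid plexus and meninges, since these markers differ between the arrays. As a percentage of the control diet mean, the summed choroid plexus markers were at 37.6% and 17.4% after fetal alcohol and 110% under isocaloric diet. Most of this fall was Ttr. Without Ttr the sums were 1736 and 2307 under control diet, 1668 and 1165 after fetal alcohol and 2405 under isocaloric diet. Bmp6 at X58830_at was at 74.9% and 64.5% after fetal alcohol and 76.9% under isocaloric diet. The part of choroid plexus RNA in the Bmp6 readings was not tested.

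The summed markers of meninges and connective tissue were at 88.5% and 56.0% after fetal alcohol and 73.3% under isocaloric diet. Bmp7 was at 66.2%, 49.7% and 61.4% on these arrays and Tgfb1 at 74.6%, 21.2% and 22.5%. The 5 arrays fell in the same order for Bmp7, for Tgfb1 and for the meningeal sum: control diet 2 highest, then control diet 1, fetal alcohol 1, isocaloric and fetal alcohol 2. Among the markers in that sum Aldh1a2 alone had this order, and the bright Ptgds and Sparc did not. Pik3r2, which is in none of the marker lists, had it too. The share of all probe sets with this order was not counted. The part of meningeal RNA in the Bmp7 and Tgfb1 readings was not tested.

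**Figure D3:**
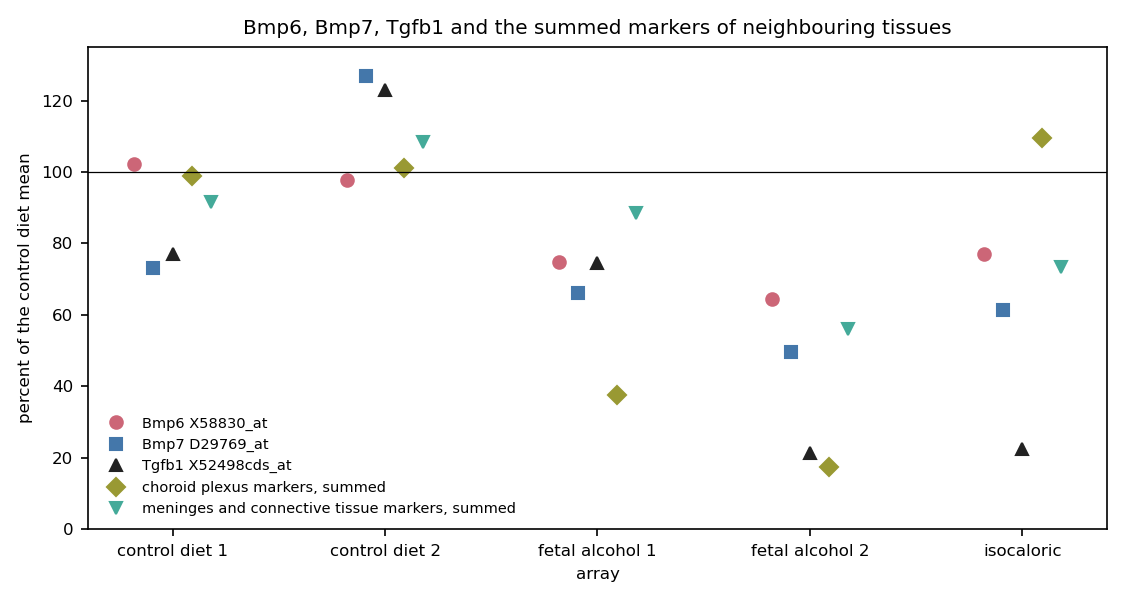
Each symbol gives a level on 1 array as a percentage of the mean of the 2 control diet arrays. Shown are Bmp6, Bmp7, Tgfb1 and the summed intensities of choroid plexus markers, Ttr included, and of meningeal markers. On the isocaloric array the choroid plexus sum is at 110% while Bmp6 is at 76.9%. Bmp7 and Tgfb1 follow the order of the meningeal sum, which Aldh1a2 alone had among the markers in that sum.

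The likeness of patterns was measured as the root mean square distance between log2 values centred on their mean over the 5 arrays, for the tested members with the widest range. The closest to Bmp7 were Pik3r2 (0.11), Ephx1 (0.11) and Col3a1 at probe set M21354_s_at (0.13), a fibrillar collagen that is in the list of meningeal markers. The meningeal sum held Col3a1 at its brightest probe set and not at this one. Pik3r2 and Ephx1 are in none of the marker lists. The closest to Tgfb3 were Kcnh3 (0.03), Gstt2 (0.04) and Rbck1 (0.05).

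Other genes of the pathway came from 4 lists, each gene at its brightest probe set, and none passed in limma in any of the 3 comparisons. Of 28 other ligands and receptors, 17 had a probe set and 7 were tested, with a median log2 difference between fetal alcohol and control diet of 0.03 (4 positive and 3 negative). The largest differences in this list were mostly of dim, untested genes. Gdf10, a BMP3-like ligand, measured 30.2 and 37.1 under control diet, 6.02 and 15.7 after fetal alcohol and 9.07 under isocaloric diet. Inhbb, an activin subunit, measured 31.3 and 40.2, then 18.8 and 14.7, and 15.5. For both, the isocaloric array read like the fetal alcohol arrays.

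The receptors with the largest differences were Acvr1 and Tgfbr3. Acvr1, a type I receptor of BMP6 and BMP7, had a log2 difference between fetal alcohol and control diet of -0.47 ± 0.26 (limma adjusted p = 0.922). It measured 59.6 and 73.2 under control diet, 36.6 and 54.4 after fetal alcohol and 46.7 under isocaloric diet, without overlap. Tgfbr3, betaglycan, a coreceptor that presents TGF-beta2, was untested with differences of -0.38 and -1.06 at its probe sets.

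Of 18 Smads and intracellular regulators, 7 had a probe set and 4 were tested, with a median log2 difference of 0.06 (3 positive and 1 negative). Smad7, an inhibitory Smad that TGF-beta itself induces, measured 26.8 and 21.5 under control diet, 13.2 and 13.9 after fetal alcohol and 10.6 under isocaloric diet, under the filter and without overlap. Smad3 had -0.32, also untested. Smad1 had 0.22 ± 0.23 and Smad2 0.09 ± 0.31, with limma adjusted p-values of 0.965 and 0.997. The dimmer Smad2 probe sets had 0.25 and 0.48.

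Of 16 extracellular antagonists and binding proteins, 12 had a probe set and 9 were tested, all 9 with negative differences between fetal alcohol and control diet (median -0.19; 49.5% of all 5244 were negative). Dimmer tested probe sets of Fstl1 and Dcn had 0.20 and 0.11, the opposite sign of those genes' brightest probe sets. For isocaloric minus control diet the list's median was -0.16, with 6 of 9 negative. Furin, a protease that releases mature ligands from their precursors, measured 366 and 406 under control diet, 271 and 297 after fetal alcohol and 341 under isocaloric diet. Its log2 difference was -0.43 ± 0.23 (limma adjusted p = 0.918), and its second probe set had -0.58. Sostdc1, a BMP antagonist that is also in the choroid plexus list, had the largest difference of the list, -1.14, and read higher on the isocaloric array (329) than on any other array. Nbl1, a BMP antagonist, had -0.34 ± 0.33, and Bgn, a proteoglycan that binds TGF-beta, -0.28 ± 0.29 at its brightest probe set, with overlapping groups for both. The dimmer Bgn probe set had -0.72 ± 0.22 (limma adjusted p = 0.682) without overlap. It measured 110.5 and 110.7 under control diet, 58.6 and 67.9 after fetal alcohol and 60.7 under isocaloric diet. Of this list, 2 genes stand in the choroid plexus or meninges lists.

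Of 20 target genes, 15 had a probe set and 14 were tested, with a median log2 difference of -0.54, 11 negative and 3 positive, against 0.0049 over all tested probe sets. Of the 20, 5 (Col1a1, Col1a2, Col3a1, Fn1 and Timp1) are also in the list of meningeal markers. Without them, a choice made after seeing the data, 9 tested targets had a median of -0.11, with 6 negative and 3 positive. The choroid plexus markers had a median log2 difference of -0.87 for fetal alcohol minus control diet, -0.95 for fetal alcohol minus isocaloric diet and 0.28 for isocaloric minus control diet. The meningeal markers had -0.64, -0.31 and -0.14. The part of either tissue in the target genes' differences was not tested. Id3, a BMP-induced protein that blocks helix-loop-helix transcription factors, measured 682 and 654 under control diet, 444 and 336 after fetal alcohol and 763 under isocaloric diet. Its log2 difference was -0.77 ± 0.24 (limma adjusted p = 0.661), and -0.31 at its second probe set. Id1 had -0.31 ± 0.27 and Id2 0.04 ± 0.25, both with overlapping groups. Msx1, a homeobox gene of BMP-responsive dorsal midline, measured 109 and 214, then 121 and 48.1, and 219 on the isocaloric array, with overlapping groups and a difference of -0.90 ± 0.43 (limma adjusted p = 0.909). Timp1, an inhibitor of matrix proteases, had -0.85 ± 0.24 (limma adjusted p = 0.582), and Col3a1 -1.14 ± 0.54 at its brightest probe set. Their dimmer probe sets had -0.48 ± 0.47 for Timp1 and -0.46 ± 0.28 for Col3a1, both with overlapping groups. At the brightest Col3a1 probe set the groups overlapped too.

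For isocaloric minus control diet, the target genes' median log2 difference from control diet was 0.04, with 8 positive and 6 negative (51.4% and 48.6% of all 5244). For fetal alcohol minus isocaloric diet it was -0.40, with 3 positive and 11 negative (49.7% and 50.3%). Id1, Id2, Id3 and Msx1 read highest on the isocaloric array at their brightest probe sets, and no other target gene did. For Msx1 this was nearly a tie with control diet array 2 (219 against 214). The choroid plexus sum was also highest on the isocaloric array and was lowest on fetal alcohol array 2. On that fetal alcohol array Id1, Id3 and Msx1 read lowest too, but Id2 read 818, above both control diet arrays. The part of choroid plexus RNA in these readings was not tested. The second Id1 probe set read lowest on the isocaloric array (92.5).

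**Figure D4:**
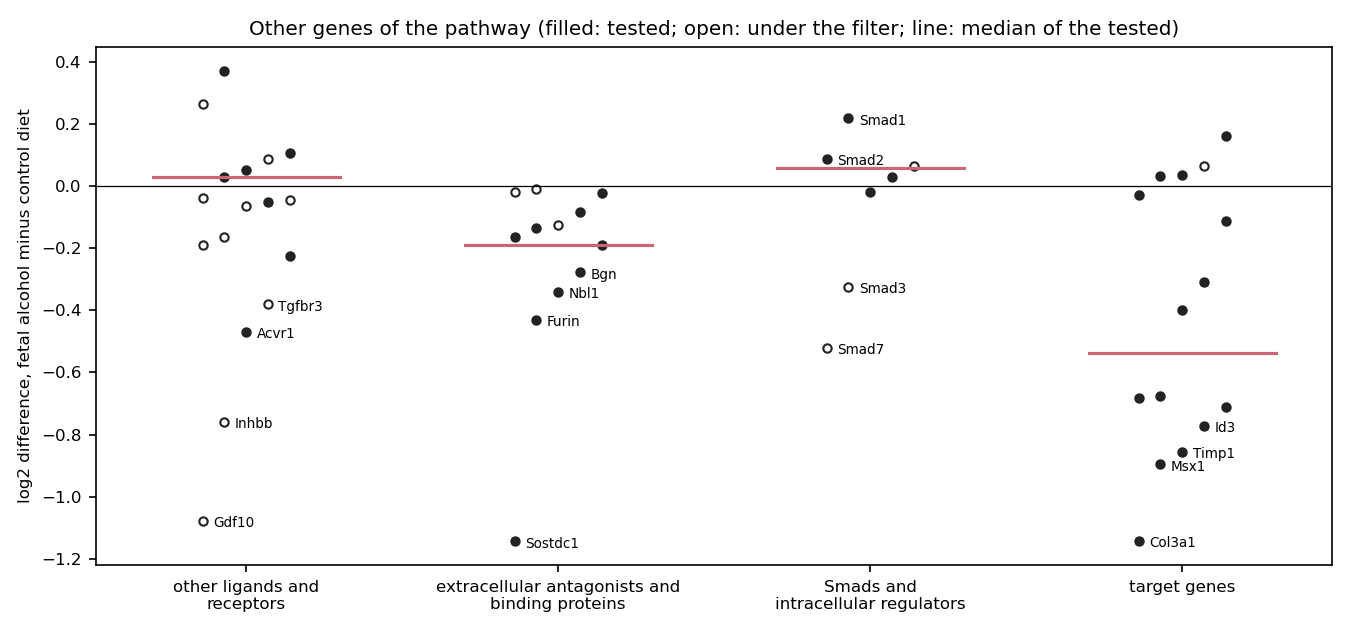
Points give the log2 difference between fetal alcohol and control diet of each pathway gene at its brightest probe set, by list; filled points were tested, open points lay under the intensity filter, and lines mark the median of the tested genes. All filled points of the antagonists and binding proteins lie below 0, and the target genes have the lowest median, -0.54, or -0.11 without the 5 genes that are also meningeal markers.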

How the data were processed

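The authors deposited 1 table of intensities, 8799 probe sets by 5 arrays, on a linear scale; which software made and scaled them is not given in the sources used here. Trimmed means (2%) of the columns agreed within a factor of 1.0002, so values were used as deposited. After leaving out 59 control probe sets, log2(intensity + 10.605) was taken, the offset being the 20th percentile of all values, and probe sets under the 40th percentile of the mean were not tested, leaving 5244 of 8740. A member could pass this filter through a high group alone. For Bmp7 the fetal alcohol mean intensity, 33.2, lay just under the filter's 33.4. Its isocaloric value, 35.2, lay just above the filter and its control diet mean was 57.4.

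One limma model (version 3.58.1, R 4.3.3) with an intensity trend held all 3 comparisons, tested 2-sided with Benjamini-Hochberg adjustment over all 5244 (2 residual and 6.3 prior degrees of freedom). The fit was also run on data simulated with normal noise of the fitted spread. Such a run checks the code and cannot show that these arrays vary that way. The number of arrays limits the precision. Of the 8740, 7006 had 1 gene symbol, 308 several and 1426 none.

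The members, the lists and the tests were chosen with earlier results of these data known. Named are every member probe set, the 4 genes of each pathway list with the largest difference between fetal alcohol and control diet, and the 3 nearest patterns of 2 members; Id1 and Id2 were added after their values were seen. Over the cell type marker lists, the median log2 difference between fetal alcohol and control diet was -0.87 for choroid plexus, -0.64 for meninges, -0.01 for neurons, 0.02 for astrocytes, 0.10 for oligodendrocytes, -0.09 for microglia, -0.13 for endothelium and -0.11 for red blood cells, with no gene past the threshold.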

Additional observations from a re-analysis of the deposited data

How the results depend on the processing

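None of the 4 tested member probe sets passed the threshold under the alternatives run, 14 for fetal alcohol against control diet and 11 for each other comparison; a stricter filter left Bmp7 and Tgfb2 untested. The other 9 were tested only in the fit without a filter, where none passed. Differences of tested members changed sign in 6 of 144 cases, all with 1 array left out. Those of untested members did so in 16 of 324, 13 with 1 array left out and 3 otherwise (Tgfb3 at U03491_at to 0.0178 under quantile normalization and 0.027 under equal medians, Bmp4 to -0.0161 with the offset at the 40th percentile). The count over all probe sets, 0 in each comparison, became for fetal alcohol against control diet 1 under quantile normalization, 9 under equal medians and 1 with the offset at the 40th percentile, and 0 to 25 with 1 array left out. Against isocaloric diet quantile normalization gave 3, equal medians also 3, and the fits with 1 array left out 0 to 12, and for isocaloric against control diet 0 to 13; the cause was not tested. The high ends were fits without fetal alcohol array 2, and those without array 1 gave 17, 10 and 11. These left-out fits can rest on 1 array a group, assumed to vary like the others.

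The deviations of same-numbered arrays correlated at -0.113, so the numbers were not taken as pairs. With the replicate block, 8 probe sets passed for fetal alcohol against control diet, and with the crossed pairing, chosen after seeing the data, 21.

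By the rule of size, the 3 members lower after fetal alcohol than on control diet went to 0 with quantile normalization, 0 with equal medians and 1 with the offset at the 40th percentile, and ranged from 0 to 4 with 1 array left out; members higher ranged from 0 to 1. Against isocaloric diet the 1 member higher became 2 with the offset at the 10th percentile and ranged from 1 to 3. For isocaloric against control diet, members higher became 1 with that offset and ranged from 0 to 1, and members lower ranged from 2 to 5.

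With 1 array left out, the Tgfb3 difference at U03491_g_at ranged from -0.12 to 0.54 between fetal alcohol and control diet, from -0.07 to 0.35 against isocaloric diet and from -0.26 to 0.40 between isocaloric and control diet. Against isocaloric diet Bmp7 ranged from -0.23 to 0.0832 and Tgfb2 from -0.31 to 0.0174.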
